A study of Arabidopsis thaliana with 48 samples.

Results

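NAC014 is the only gene described here, because the symbol rule for NAC transcription factor genes found 1 probe set among the 22810 of the Affymetrix ATH1 array, 1 gene of the 13355 that single-gene probe sets name. The rule took probe sets with a single gene whose symbol in the array's probe-to-gene table starts with NAC, ANAC or anac and a digit. That table names 13513 of the 22746 tested probe sets with 1 gene and 503 with several, and no NAC symbol stands among those with several. RefSeq lists 81 Arabidopsis genes with such a symbol. Apart from NAC014 they were not analysed here, so the values below describe 1 gene and not the family. NAC014, also called ANAC014, is the gene AT1G33060 and was measured by the probe set 261616_at.

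NAC proteins are a large family of plant transcription factors, named after NAM, ATAF and CUC, that bind DNA through a conserved domain at the N terminus. Members are known for roles in organ boundaries, secondary walls, senescence and stress. A subset, to which NAC014 belongs, carries a transmembrane segment near the C terminus. Such proteins rest in a membrane and reach the nucleus after they are cut free, so that their activity is controlled after translation as well as through the amount of RNA.

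RNA came from the aerial part of 10-day seedlings of the Arabidopsis thaliana line Landsberg erecta. There were 4 groups: gcn2 with herbicide, gcn2 with mock treatment, wild type (WT) with herbicide and WT with mock treatment. When amino acids are scarce, the kinase GCN2 phosphorylates eIF2α, a factor of translation initiation. The labels name the mutant gcn2 and give no allele. No probe set is named GCN2 in the table used, so its RNA was not analysed here and gave no check of the genotype labels. The herbicide, chlorsulfuron (spelled chlorosufuron in the labels), inhibits acetolactate synthase and with it the making of valine, leucine and isoleucine, and mock was solvent alone. At 2 h after the light came on, seedlings lay in the liquid for 1 min, and they were harvested after another 2 h. The dose given is 0.5 mM, but the dilution described, 10000-fold from a stock of 5 mM, yields 0.5 µM, so the 2 statements lie 1000-fold apart. Each group had 3 arrays of total RNA and 3 sucrose gradients of 30% to 50%, and from each gradient 4 fractions each were pooled as non-polysomal RNA, small polysomes and large polysomes. Thus 48 arrays, in 16 groups of 3, compared the herbicide response with and without GCN2 in RNA amount and in RNA on polysomes.

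Values are log2 probe set levels as deposited, and they place a gene relative to the other probe sets of its array, so a change of all RNAs at once is not seen. The WT gradients of replicate 3 went against their labels. For 2626 probe sets, those past the test for herbicide in total RNA of gcn2, herbicide minus mock was given a positive sign where it ran the same way as there. It averaged between -0.39 and -0.29 in the 3 fractions of these gradients, against 0.31 to 0.44 in those of WT replicates 1 and 2, and 0.41 in WT total RNA of replicate 3. Tests that use WT gradients are therefore given with and without them, while group means, spreads and other descriptions keep them. A single array, of large polysomes from WT mock replicate 1, was dimmer, with a median of 5.67 against 6.15 to 6.31 in the other arrays. The leaf genes RCA, LHCB4.1 and PRK, 3 of 12 listed mesophyll markers and all that were measured, had medians of 12.7, 13.7 and 11.8. Of 9 listed root markers 4 were measured: AT5G17820 and the root hair gene EXPA7 lay below the lower quartile of the array in 48 and 47 of 48 arrays, EXPA18 in 36, and PYK10 had a median of 10.2. The guard cell gene FMA had a median of 6.65, and 0 of 5 xylem and 0 of 3 shoot meristem markers were measured.

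NAC014 RNA differed little between groups and RNA types, and none of 15 comparisons passed its test. The 48 arrays ran from 7.85 to 9.05 with a median of 8.33. The 16 group means spanned 0.56 log2 units, and their SD was 0.17, against a median of 0.29 over all tested probe sets. Its spread within groups was not small: the pooled SD between replicates was 0.29, against a median of 0.27 over probe sets. The groups' own SD ran from 0.07 in gcn2 mock total RNA to 0.42 in gcn2 herbicide large polysomes. Thus the 16 group means spread less than those of most probe sets, and the replicates about as much. Herbicide minus mock alone ranked higher. In total RNA 55.3% of probe sets had a smaller difference in size in WT and 60.0% in gcn2. In polysomal RNA, the mean of small and large polysomes, 81.4% and 73.3% did, with all gradients kept. Between genotypes 10.05% (mock) and 9.23% (herbicide) did in total RNA, and 5.56% and 21.5% in polysomal RNA.

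The highest group means were 8.64 ± 0.41 in small polysomes and 8.63 ± 0.28 in non-polysomal RNA of gcn2 with herbicide, then 8.51 ± 0.42 in large polysomes of WT with herbicide (SD, n = 3 each). Next stood non-polysomal RNA of WT mock (8.39 ± 0.13) and of gcn2 mock (8.38 ± 0.14), small polysomes of WT with herbicide (8.38 ± 0.27), and large polysomes of gcn2 with herbicide (8.36 ± 0.42). Total RNA of both herbicide groups followed, at 8.32 ± 0.16 in gcn2 and 8.29 ± 0.29 in WT, and then non-polysomal RNA of WT with herbicide at 8.26 ± 0.15. The 6 lowest means were all of mock samples, with gcn2 large (8.19 ± 0.31) and small polysomes (8.18 ± 0.35), WT large (8.17 ± 0.38) and small polysomes (8.17 ± 0.18), and total RNA of WT (8.10 ± 0.28) and gcn2 (8.08 ± 0.07). None of the 15 gaps between neighbours in this order exceeded the larger SD of the 2 groups, and the widest gap was 0.12.

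**Figure D1:**
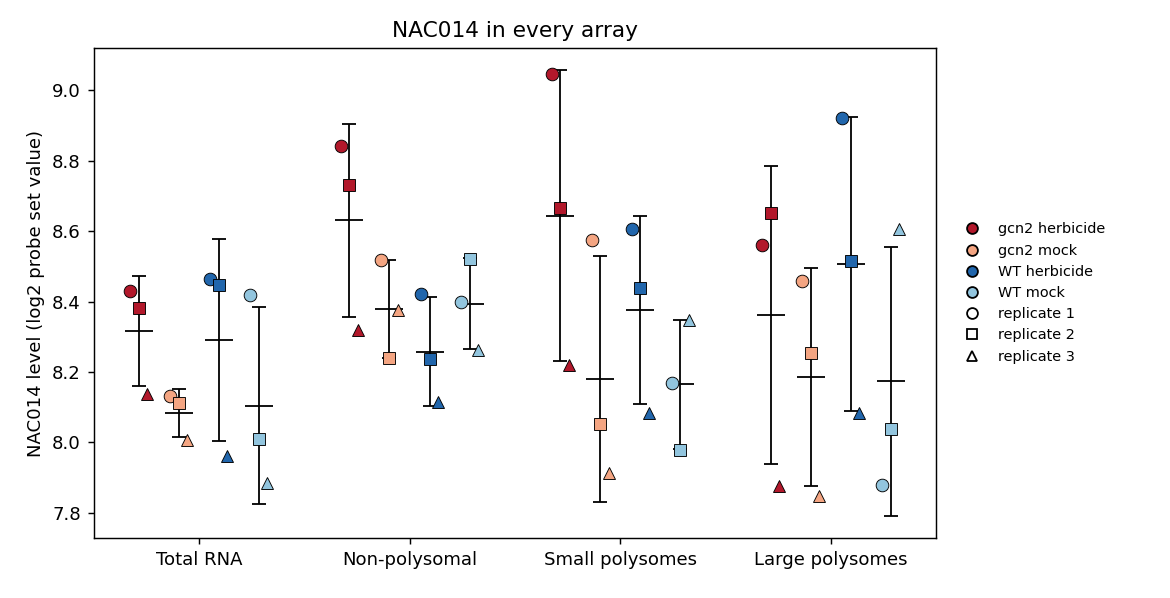
NAC014 log2 level (y axis) in each of the 48 arrays, by RNA type (x axis), with gcn2 herbicide, gcn2 mock, WT herbicide and WT mock from left to right in each type. Circles, squares and triangles are replicates 1, 2 and 3, horizontal bars are means and error bars are SD (n = 3). All values lie between 7.85 and 9.05, and replicate 3 is the lowest of its group in 13 of 16 groups.

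In gcn2 total RNA, NAC014 had 8.43, 8.38 and 8.14 with herbicide, against 8.13, 8.11 and 8.01 with mock, in replicates 1, 2 and 3. The groups did not overlap, but the gap between them was only 0.0064, and 12.5% of tested probe sets were likewise higher in all 3 herbicide arrays. The difference of 0.23 ± 0.17 (SE; a 1.18-fold level) did not pass limma's test (adjusted p = 0.424), with a 95% interval of -0.12 to 0.58. Of all tested probe sets 11.5% passed this comparison, and 60.0% had a smaller difference in size than NAC014.

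In WT total RNA, NAC014 had 8.47, 8.45 and 7.96 with herbicide, against 8.42, 8.01 and 7.88 with mock. The groups overlapped, since replicate 1 of mock lay above replicate 3 of herbicide, while each herbicide array lay above the mock array of the same number. The difference was 0.19 ± 0.17 (SE), with a 95% interval of -0.16 to 0.54, and did not pass (limma, adjusted p = 0.583), where 6.73% of probe sets did. Leaving out 1 array at a time gave 0.08 (without WT mock replicate 3) to 0.35 (without WT herbicide replicate 3). Replicate numbers paired the total RNA samples, and blocking on the replicate in the fit called 21.7% of probe sets in gcn2 and 16.0% in WT. NAC014 did not pass in it either, with adjusted p = 0.176 in gcn2 and 0.313 in WT by limma.

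The mutation of GCN2 made no difference to NAC014 total RNA that these arrays could show. With herbicide, the gcn2 level minus the WT level was 0.02 ± 0.17 (SE; limma, adjusted p = 0.964), with a 95% interval of -0.33 to 0.38, and 4.49% of probe sets passed. With mock it was -0.02 ± 0.17 (adjusted p = 0.994; interval -0.37 to 0.33), and 0.136% of probe sets passed. The herbicide response of gcn2 minus that of WT was 0.05 ± 0.23 (adjusted p = 0.972), with an interval of -0.45 to 0.54, where 1.53% of probe sets passed. With the replicate block these shares were 11.3%, 0.717% and 4.62%, and NAC014 had adjusted p = 0.925, 0.965 and 0.919 in the same order. As folds, the 95% intervals of the herbicide response in total RNA without the block were 0.921 to 1.498 in gcn2 and 0.893 to 1.45 in WT. With the block the SE of this response was 0.12, and its log2 intervals were -0.02 to 0.48 in gcn2 and -0.06 to 0.44 in WT.

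**Figure D2:**
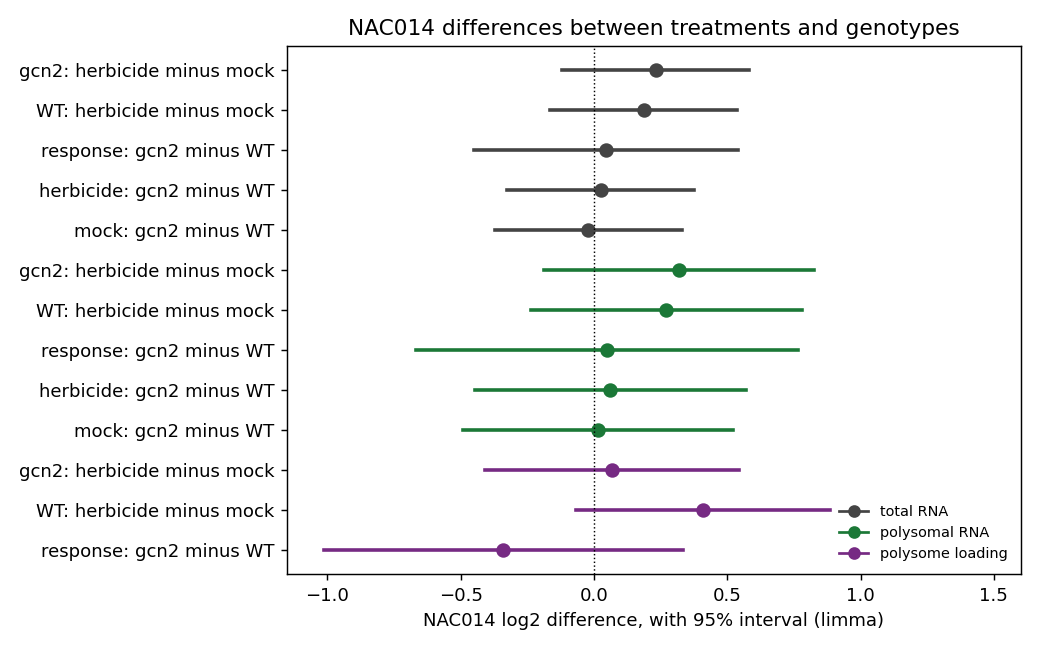
NAC014 log2 differences (x axis) with limma's 95% intervals, for treatments and genotypes in total RNA, polysomal RNA and polysome loading (y axis). The intervals are those of the main fit, and the mock loading levels against 0 are not drawn. Every interval spans 0. The widest differences are the WT herbicide response in loading at 0.41 and the difference of the loading responses at -0.34.

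In the gradients of gcn2, NAC014 had a higher mean with herbicide in each fraction. In all but small polysomes the difference was less than the larger SD of the herbicide and mock groups. Small polysomes had 9.05, 8.67 and 8.22 with herbicide and 8.57, 8.05 and 7.91 with mock, so that each herbicide array lay above the mock array of the same number, by 0.46 on average, while the groups overlapped. Large polysomes had 8.56, 8.65 and 7.88 with herbicide and 8.46, 8.25 and 7.85 with mock. Non-polysomal RNA had 8.84, 8.73 and 8.32 with herbicide and 8.52, 8.24 and 8.38 with mock, with the order turned round in replicate 3. These groups overlapped as well. Polysomal RNA, taken as the average of both polysome classes within a gradient, was 8.50 ± 0.40 with herbicide and 8.18 ± 0.32 with mock (SD, n = 3). The difference of 0.32 ± 0.24 (SE) did not pass (limma, adjusted p = 0.578; 95% interval -0.19 to 0.83), while 4.77% of probe sets did. It was 0.17 without replicate 1 of herbicide or replicate 3 of mock, 0.55 without replicate 3 of herbicide and 0.49 without replicate 1 of mock. The WT gradients share in the estimate of spread. Without those of replicate 3 the difference had an SE of 0.21 (limma, adjusted p = 0.457), where 1702 of 22746 probe sets passed.

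The WT gradients split by replicate. Large polysomes had 8.92, 8.52 and 8.09 with herbicide and 7.88, 8.04 and 8.61 with mock, and small polysomes had 8.61, 8.44 and 8.08 with herbicide and 8.17, 7.98 and 8.35 with mock. In both, herbicide lay above mock in replicates 1 and 2 and below it in replicate 3, the gradients that stood apart over the whole array. Non-polysomal RNA had 8.42, 8.24 and 8.11 with herbicide and 8.40, 8.52 and 8.26 with mock, which overlapped. Over all gradients the polysomal difference was 0.27 ± 0.24 (SE; limma, adjusted p = 0.986; 95% interval -0.23 to 0.78), and 0.00% of probe sets passed, with 874 at an unadjusted p under 0.05. The value was 0.17 after quantile normalization and 0.16 after centring of the arrays, and 0.20 without WT mock replicate 1, whose large polysome array was the dim one. Leaving out 1 gradient at a time gave 0.11 (without WT herbicide replicate 1) to 0.45 (without WT herbicide replicate 3).

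Without the WT gradients of replicate 3, the polysomal difference in WT was 0.60 ± 0.26 (SE) and did not pass (limma, adjusted p = 0.477), where 0.901% of probe sets did. With the replicate as a block and those gradients left out, the same difference had an SE of 0.15 and passed (limma, adjusted p = 0.0201), where 6.34% of probe sets did. That combination was chosen after seeing the data, and it leaves 2 WT gradients per treatment, of which mock replicate 1 holds the dim array. Among the remaining gradients, 13 of 13 pairs of samples with the same number had residuals that correlated above 0.1, against 15 of 18 with all gradients. In this combined fit the gcn2 difference of 0.32 ± 0.12 had adjusted p = 0.0712, where 21.0% of probe sets passed. The response in gcn2 minus that in WT was -0.28 ± 0.19 (limma, adjusted p = 0.491), where 2.37% passed. The block alone, with all gradients, gave adjusted p = 0.753 in WT.

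Between genotypes, polysomal NAC014 averaged 8.50 ± 0.40 in gcn2 and 8.44 ± 0.34 in WT with herbicide, and 8.18 ± 0.32 in gcn2 and 8.17 ± 0.27 in WT with mock (SD, n = 3). The differences were 0.06 ± 0.24 (SE; limma, adjusted p = 0.963) and 0.01 ± 0.24 (adjusted p = 0.998), where 1.93% and 0.0659% of probe sets passed. The polysomal response in gcn2 minus that in WT was 0.05 ± 0.34 (adjusted p = 0.988), with a 95% interval of -0.67 to 0.76, and 0.409% of probe sets passed. Without the WT gradients of replicate 3 these 3 values were -0.12, 0.17 and -0.28, and none passed by limma (adjusted p = 0.924, 0.958 and 0.936), where 1.81%, 0.0615% and 0.444% of probe sets did.

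Polysome loading, the polysomal minus non-polysomal log2 level within a gradient, compares the 2 RNA pools relative to other genes. NAC014 loading was -0.04, -0.07 and -0.27 in gcn2 with herbicide, against -0.00, -0.09 and -0.50 in gcn2 with mock. It was 0.34, 0.24 and -0.03 in WT with herbicide, against -0.38, -0.51 and 0.21 in WT with mock. Replicate 3 thus had the lowest loading in 3 of the 4 groups and the highest in WT mock. In both mock groups NAC014 lay slightly below the typical probe set of its gradient, by 0.21 ± 0.15 in gcn2 and 0.21 ± 0.15 in WT after each gradient was centred on its median (SE). Leaving out 1 gradient at a time gave -0.28 to -0.07 in gcn2, lowest in size without replicate 3, and -0.35 to -0.09 in WT, from without replicate 3 to without replicate 2. Neither level passed against 0 by limma (adjusted p = 0.338 and 0.322), whereas 29.2% and 29.1% of probe sets did. Without the WT gradients of replicate 3 the gcn2 mock level had an SE of 0.13 (limma, adjusted p = 0.238), where 7906 of 22746 probe sets passed. The WT mock level was then -0.35 ± 0.15 (limma, adjusted p = 0.1), where 29.7% of probe sets passed. With the replicate block as well it was -0.46 ± 0.15 and passed (limma, adjusted p = 0.039), where 28.0% did, although only 2 of 13 pairs of the same number then correlated above 0.1 in loading. Those 2 calls, in polysomal RNA and loading of WT, were the only ones in 10 values of the combined setting. The 280 values under the other settings tried gave none, but many of them repeat the main estimate with another SE and are not separate tests.

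The herbicide response of loading was 0.07 ± 0.23 in gcn2 (SE; limma, adjusted p = 0.975) and 0.41 ± 0.23 in WT (adjusted p = 0.918), where 0.0484% and 0.00% of probe sets passed. The WT value had the smallest unadjusted p of the 15 NAC014 comparisons, 0.0882, and a 95% interval of -0.07 to 0.88. In WT, 1188 probe sets had an unadjusted p under 0.05. The gcn2 response minus the WT response was -0.34 ± 0.32 (adjusted p = 0.905; interval -1.01 to 0.33), where 0.00% of probe sets passed and 1419 had an unadjusted p under 0.05. After centring of the arrays the WT response was 0.24 and the difference of responses -0.18. Without WT mock replicate 2 they were 0.27 and -0.20, without WT mock replicate 3 they were 0.63 and -0.56, and without WT mock replicate 1, with the dim array, 0.33 and -0.27. Without the WT gradients of replicate 3 the WT response was 0.73 ± 0.23 (adjusted p = 0.114) and the difference of the responses -0.67 ± 0.29 (adjusted p = 0.283). In that fit 1 probe set passed each of these comparisons (0.00440%), and NAC014 was in neither. The gcn2 response of 0.07 had an SE of 0.19 there (limma, adjusted p = 0.928), where 96 of 22746 probe sets passed. With herbicide, all 3 gcn2 gradients had a lower uncentred loading than all 3 WT gradients, with -0.04 in the highest gcn2 and -0.03 in the lowest WT gradient, and 12.1% of probe sets were likewise lower in gcn2. After centring of the gradients the groups overlapped, since gcn2 replicates 1 and 2 (-0.00 and -0.06) lay above WT replicate 3 (-0.08).

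**Figure D3:**
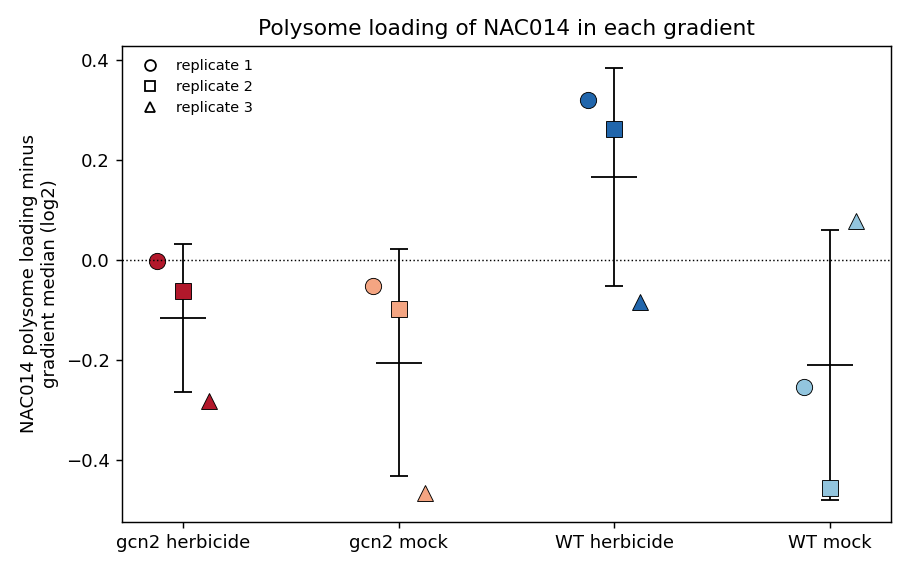
Polysome loading of NAC014 minus the median of all probe sets in the same gradient (log2, y axis), in gcn2 herbicide, gcn2 mock, WT herbicide and WT mock (x axis). Points are single gradients, with circles, squares and triangles for replicates 1, 2 and 3, bars are means and error bars are SD (n = 3). WT herbicide replicates 1 and 2 lie highest, at 0.32 and 0.26, and WT mock replicate 3 lies above the other WT mock gradients.

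The large polysome level minus the small polysome level, which was not tested, was -0.49, -0.01 and -0.34 in gcn2 with herbicide, against -0.12, 0.20 and -0.06 in gcn2 with mock. In WT it was 0.32, 0.08 and 0.00 with herbicide, against -0.29, 0.06 and 0.26 with mock. Herbicide minus mock of this value was -0.37, -0.21 and -0.28 in gcn2 replicates 1, 2 and 3, negative in each. It was 0.61, 0.02 and -0.26 in WT, and values of herbicide and mock overlapped in both genotypes. The -0.29 of WT mock replicate 1, and with it the 0.61, rests on the dim large polysome array. Relative to its array median NAC014 stood at 2.21 there, and at 1.99 in the small polysomes of that gradient, which turns their order round. The -0.26 is of the WT gradients that went against their labels. With herbicide all 3 gcn2 values lay below all 3 WT values, as they did for 6.36% of probe sets.

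The named probe sets whose pattern over the 16 group means was most like that of NAC014 were AT5G54720 (Pearson r = 0.855), AT1G76970 (0.852), AT1G66260 (0.844), AT3G14700 (0.841) and TBL38 (0.831). This rule was chosen after the design was fixed, and the correlations are a description over means that share arrays and replicates. Over all tested probe sets r had a 5th percentile of -0.54, a median of 0.00 and a 95th percentile of 0.59. AT5G54720 had a mean level of 2.77, below the lower quartile of the arrays. The group means of AT1G66260 spanned 0.70 log2 units and those of TBL38, of a family of polysaccharide acetyltransferases, 1.32.

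Of 82 NAC family genes listed by locus and of 15 membrane-tethered ones, NAC014 was the 1 that a single-gene probe set names. The others may stand among the 8730 unnamed probe sets. Listed targets of other NAC proteins were also read in the same total RNA, and whether NAC proteins moved them was not tested. Genes of the mitochondrial dysfunction response are bound by ANAC013 and ANAC017, relatives of NAC014 that are also membrane-tethered, and 9 of 15 listed were measured. With herbicide all 9 were higher in both genotypes. All 9 passed in gcn2 and 7 in WT, where 6.67% and 4.05% of all tested probe sets passed as higher. The 9 had median differences of 2.44 in gcn2 and 1.83 in WT, against -0.06 and -0.02 over all tested probe sets. Among them AT2G21640, which encodes a mitochondrial protein induced by oxidative stress, rose by 3.36 ± 0.14 in gcn2 (SE; limma, adjusted p = 1.98e-10) and by 1.90 ± 0.14 in WT (adjusted p = 1.24e-06), a difference of 1.46 ± 0.20 (adjusted p = 0.00071). The list was assembled with responses of some of its genes known, so its direction is not independent evidence.

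Of 14 listed genes of senescence and chlorophyll breakdown 2 were measured, and SAG101, named for senescence, rose by 1.30 ± 0.11 in gcn2 (SE; limma, adjusted p = 7.28e-07) and by 0.44 ± 0.11 in WT (adjusted p = 0.03). The other, SAG29, named after its values were seen, had -0.21 ± 0.17 in gcn2 (limma, adjusted p = 0.504) and 0.15 ± 0.17 in WT (adjusted p = 0.684). Of 10 genes of the unfolded protein response 3 were measured, and in each genotype 1 passed as higher and 1 as lower. Of all probe sets 4.87% passed as lower in gcn2 and 2.68% in WT. BZIP60, a membrane-bound transcription factor of that response, had differences of 1.75 ± 0.22 in gcn2 and 1.03 ± 0.22 in WT, and ATERDJ3B, a chaperone partner of the endoplasmic reticulum, -0.81 ± 0.13 in gcn2 and -0.80 ± 0.13 in WT. The third, CRT1b, likewise named after its values were seen, had -0.33 ± 0.15 in gcn2 and -0.36 ± 0.15 in WT and did not pass. Of 14 secondary wall genes 1 was measured, and it did not pass in either genotype.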

How the data were processed

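Arabidopsis RNA was hybridised to Affymetrix ATH1 arrays, 3 per group. The deposited values are log2 probe set summaries; per the submitters' processing notes RMA, affy and MAS5 were used, whose versions, roles and order are not given, nor whether arrays were normalized in 1 run. After 64 control probe sets were left out, 22746 were fitted with limma 3.58.1 in R 4.3.3 (a mean per group, moderated variances), for total RNA over 12 arrays and for polysomal RNA and polysome loading over 12 gradients each. Benjamini-Hochberg adjustment ran over the 22746, calls were made at 0.05, and 95% intervals are those of single comparisons. Arrays carry no counts, and their number limits the precision. Separate cultures are not stated for the replicates, and the p-values may then reflect technical spread alone. Residuals of samples with the same replicate number correlated above 0.1 in 18 of 18 pairs in total RNA, 15 of 18 in polysomal RNA and 4 of 18 in loading. With all gradients kept, the numbers were thus taken to pair the total RNA samples and not the gradients. Without the WT gradients of replicate 3, 13 of 13 pairs passed in polysomal RNA and 2 of 13 in loading. The main fits hold no replicate term. Those of total RNA thus leave out this pairing, and those of polysomal RNA leave out a pairing that the remaining gradients show. The total RNA tests of NAC014 are also given with the block, and those of the list genes are not. Genes were named through the probe table and RefSeq (assembly TAIR10.1), and 13436 of the 13513 single-gene probe sets matched RefSeq. The fit was tested on simulated data. The rule for named genes took every member past the threshold, the list genes with the smallest adjusted p, and NAC014 as the only member. Of the mitochondrial dysfunction list only AT2G21640 is given with values, so the rule was not followed there. AT2G41730 and AT2G32020 had a smaller adjusted p for herbicide in each genotype. The member rule and the gene lists were chosen with earlier results of these data known. Alternatives were the replicate block, dim probe sets left out, quantile normalization, centring, a trended prior variance, array weights, each replicate left out in turn, and the WT gradients of replicate 3 left out.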

Additional observations from a re-analysis of the deposited data

How the results depend on the processing

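None of the 15 NAC014 comparisons passed in the main analysis, nor did any of 280 values under the settings listed earlier. Many of those values share the main estimate. The lowest adjusted p among them was 0.0993 by limma, for the WT herbicide response of loading with array weights. Leaving out the WT gradients of replicate 3 together with the replicate block was chosen after seeing the data, and it gave the only 2 of 10 values that passed, 0.60 for the WT polysomal herbicide response and -0.46 for the WT mock loading level. It also turned the polysomal difference of responses to -0.28, as did leaving out those gradients without the block (-0.28), which further gave -0.12 for polysomal gcn2 against WT with herbicide. With array weights the total RNA difference of responses was -0.037, gcn2 against WT mock in total RNA 0.10, and the polysomal difference of responses -0.081. Polysomal gcn2 against WT in mock was -0.075 after quantile normalization and -0.077 after centring. The cause was not tested.

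Leaving out 1 replicate at a time gave ranges of -0.12 to 0.15 for the difference of responses in total RNA, -0.13 to 0.14 for gcn2 against WT in mock and -0.14 to 0.11 with herbicide. In polysomal RNA they were -0.13 to 0.28 for the difference of responses, -0.15 to 0.17 for gcn2 against WT in mock and -0.12 to 0.29 with herbicide, and for the gcn2 response of loading -0.083 to 0.16. The herbicide response in gcn2 total RNA was 0.18 to 0.32. The other ranges stand beside their results, and no comparison passed in these fits.

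Without the WT gradients of replicate 3, adding the replicate block brought the WT polysomal herbicide response and the WT mock loading level past the threshold. With all gradients kept, the block changed no NAC014 call. Over all probe sets it raised the calls in total RNA to 4926 for herbicide in gcn2 (2626 without it), 3643 in WT (1530), 1051 for the difference (347), 2561 for gcn2 against WT with herbicide (1022) and 163 with mock (31), and in polysomal RNA to 1685 for gcn2 herbicide (1085) and 748 for gcn2 against WT with herbicide (440). Array weights gave 1717 and 58 calls for gcn2 against WT in total RNA with herbicide and mock, 2627, 184 and 1078 in polysomal RNA for gcn2 herbicide, the difference and gcn2 against WT with herbicide (main 1085, 93 and 440), and 247 and 20 in loading for gcn2 herbicide and the difference (main 11 and 0). Centring gave 210 for the polysomal difference. Without the WT gradients of replicate 3 there were 205 calls for WT polysomal herbicide (main 0), 1702 in gcn2 and 96 for gcn2 loading; with the block as well, 1443, 4779 and 85, 538 for the polysomal difference, and 144 and 1527 for gcn2 against WT in mock and herbicide (main 15 and 440). The 3 samples a group limit the precision.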

Other observations

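NAC014 was lowest in replicate 3 in 13 of the 16 groups, 7 of them among the 8 of gcn2, and highest in replicate 1 in 12. Its mean over 16 arrays was 8.49 in replicate 1, 8.33 in replicate 2 and 8.13 in replicate 3. Of all tested probe sets 2.46% had replicate 3 lowest in at least 13 groups, and 9.07% had some replicate number lowest that often. These values include the WT gradients of replicate 3. This count was chosen after the values were seen, and what the replicate numbers stand for is not given in the labels.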
